A study of Mus musculus with 10 samples.

Results

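The unfolded protein response and the ATF4 amino acid response were followed through 39 named genes in mouse T cell acute lymphoblastic leukemia. The genes were listed by symbol, and each was read by 1 probe set, the one with the highest mean over the 10 arrays among those annotated to that symbol alone. All 39 were found among the 18193 genes represented on the array. They were divided into 22 genes of the ATF4 arm, which serve amino acid supply and stress signalling, 14 genes of the XBP1/ATF6 arm, mostly chaperones of the endoplasmic reticulum (ER), and the 3 sensors of ER stress.

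The leukemias were driven by ICN1, the activated intracellular part of NOTCH1, and every leukemia, control or treated, carried the ROSCreERT2 transgene and both floxed copies of CnB1. CnB1, now named Ppp3r1, encodes the regulatory subunit of the phosphatase calcineurin. Leukemic secondary recipient mice received tamoxifen to activate the Cre and delete CnB1 (TAM, 5 arrays) or corn oil (OIL, 5 arrays), and RNA came from leukemic bone marrow cells that had been flow sorted on a fluorescent marker. Each treatment has 1 array for each of the leukemia names 204, 206, F3, F3.1 and F3.2, called labels here. For F3.1 and F3.2 a number after a hyphen, which differed between the treatments, was left out of the name. The sources used here do not explain the labels, and give no dose, time, age or host strain. No samples without floxed alleles were given tamoxifen here, so the drug and the deletion cannot be told apart.

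Cells sense misfolded protein in the ER through 3 membrane proteins. IRE1 (gene Ern1) splices the mRNA of the transcription factor XBP1, ATF6 is cleaved into a transcription factor, and both raise ER chaperones and degradation factors. PERK (gene Eif2ak3) phosphorylates the translation factor eIF2, as do kinases that sense amino acid shortage, and this favours translation of ATF4, which drives amino acid transporters and synthesis enzymes. Much of this signalling runs through splicing, cleavage and translation, which arrays of transcript level do not measure.

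The arms are known for different promoter elements, and these promoters are shown because they hold the elements or belong to genes described at length. They are RefSeq promoters of build GRCm38.p6, from 250 bases before to 50 bases after the annotated start, and were matched by symbol for 35 members. Slc7a5, Slc1a5, Manf and Atf6 had no entry. The motifs searched, on both strands, were the C/EBP-ATF response element TTNCATCA, the ER stress response element, CCAAT and CCACG with any 9 bases between them, its second form, ATTGG and CCACG with any 1 base between them, and the unfolded protein response element TGACGTGG. Capitals mark the motif matches. The first pair come from the ATF4 arm and the last 3 from the XBP1/ATF6 arm.
Chac1: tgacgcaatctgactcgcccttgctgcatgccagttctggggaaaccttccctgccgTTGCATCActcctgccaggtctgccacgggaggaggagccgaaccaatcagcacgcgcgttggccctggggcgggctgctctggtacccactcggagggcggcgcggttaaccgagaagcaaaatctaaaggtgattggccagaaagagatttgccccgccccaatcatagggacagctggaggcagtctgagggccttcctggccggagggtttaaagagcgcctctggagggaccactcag
Asns: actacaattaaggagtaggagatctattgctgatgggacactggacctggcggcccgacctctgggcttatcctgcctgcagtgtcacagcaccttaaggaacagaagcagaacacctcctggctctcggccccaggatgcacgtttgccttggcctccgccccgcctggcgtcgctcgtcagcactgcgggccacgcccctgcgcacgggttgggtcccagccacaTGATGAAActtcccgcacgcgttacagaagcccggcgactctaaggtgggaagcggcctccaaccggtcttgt
Hspa5: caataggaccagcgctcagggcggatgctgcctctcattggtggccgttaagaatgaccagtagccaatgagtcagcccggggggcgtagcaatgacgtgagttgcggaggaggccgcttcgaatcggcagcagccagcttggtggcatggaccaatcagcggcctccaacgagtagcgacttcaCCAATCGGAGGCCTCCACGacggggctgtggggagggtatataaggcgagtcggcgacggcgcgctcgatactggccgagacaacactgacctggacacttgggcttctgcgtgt
Hsp90b1: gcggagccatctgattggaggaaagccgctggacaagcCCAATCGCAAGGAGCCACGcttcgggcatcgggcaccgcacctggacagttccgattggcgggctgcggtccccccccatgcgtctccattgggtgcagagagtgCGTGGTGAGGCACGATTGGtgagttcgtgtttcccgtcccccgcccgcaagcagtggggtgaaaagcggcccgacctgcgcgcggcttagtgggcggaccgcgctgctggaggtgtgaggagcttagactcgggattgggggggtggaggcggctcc
Herpud1: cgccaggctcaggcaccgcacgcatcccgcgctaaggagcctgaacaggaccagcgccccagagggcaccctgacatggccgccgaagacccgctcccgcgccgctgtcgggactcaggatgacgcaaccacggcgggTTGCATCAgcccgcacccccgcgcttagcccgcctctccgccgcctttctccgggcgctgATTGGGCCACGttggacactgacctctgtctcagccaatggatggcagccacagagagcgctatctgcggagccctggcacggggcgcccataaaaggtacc

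These windows lie at chr2:119350992-119351291 on the plus strand for Chac1, at chr6:7693160-7693459 on the minus strand for Asns and at chr2:34771840-34772139 on the plus strand for Hspa5. That of Hsp90b1 lies at chr10:86705395-86705694 on the minus strand and that of Herpud1 at chr8:94386179-94386478 on the plus strand. The C/EBP-ATF element stood from base -193 to -186 before the start of Chac1, and on the opposite strand from -23 to -16 in Asns. Hspa5 held the ER stress element from -65 to -47. Hsp90b1 held it at 2 places, from -212 to -194 and, on the opposite strand, from -107 to -89. Herpud1 held the C/EBP-ATF element from -112 to -105 and the second ER stress element from -52 to -42, so this ER degradation gene carried a motif of each arm.

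Where a gene had several promoters, a match in any of them counted. The ER stress element was found in 6 of the 13 matched XBP1/ATF6 arm genes, Hspa5, Hsp90b1, Calr, Dnajc3, Creld2 and Pdia6, and in 0 of 20 ATF4 arm genes. It stood in 0.119% of all 32851 promoters of that length and in 0.137% of their 27025 genes. The C/EBP-ATF element was found in 6 of 20 ATF4 arm genes (Nupr1, Trib3, Chac1, Vldlr, Asns and Slc7a11) and in 1 of 13 of the other arm, Herpud1, against 4.51% of all genes and 3.97% of all promoters. Vldlr held it in 1 of its 2 promoters. The second ER stress element occurred only in Herpud1 among the 35 members (0.0444% of all genes), and TGACGTGG in none of them (0.714%). The promoters of the sensors Eif2ak3 and Ern1 held none of the 4 letter patterns. A match is a description of the letters and shows no binding.

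All genes with a mean below 4.59 log2 units, the dimmest 30%, were left untested. The 10 T cell markers all lay above this dim limit, with means from 6.93 to 12.78 log2 units, and summed to 104.08 to 109.99 in OIL and 104.04 to 108.72 in TAM. Of these, 8 were higher in TAM, with a median difference of 0.20, against 0.25 for the 36 tested members. Cd2, an adhesion receptor, went the other way, from 10.94 to 9.95 without overlap, and was called with the block (limma adjusted p = 0.0271, and 0.0588 without it). Of 7 plasma and B cell markers 5 lay below that limit, and the list summed to 34.14 to 35.66 log2 units in OIL and 33.77 to 34.56 in TAM. The 7 myeloid markers summed to 33.23 to 44.03 in OIL and 36.92 to 47.43 in TAM, with 5 of the 7 above the limit and Mpo and Itgam below it. The tested myeloid markers had a median difference of 0.40, with S100a8 at 0.94 and S100a9 at 0.87, and none was called in limma (0 had an unadjusted p below 0.05 without the block). The 4 erythroid markers summed to 18.06 to 19.10 and 18.17 to 19.08. Whether these markers had a part in the results was not tested. In bulk RNA, fewer cells of a type and less RNA per cell cannot be told apart. Of the 2 probe sets of the deleted Ppp3r1, the dimmer fell from 5.32 to 3.26 without overlap (two-sided exact permutation p = 0.00794, the smallest that 5 against 5 arrays allow) and the brighter differed by -0.12. The closest pair of arrays, OIL F3.1 with OIL F3.2, correlated at r = 0.9969 over probe sets, next to 0.9952 for the second closest.

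The 1 member called by the comparison without a block was a sensor. Eif2ak3, which encodes PERK, rose 1.57-fold in TAM. In the label order 204, 206, F3.1, F3.2, F3, OIL arrays read 8.81, 8.72, 8.68, 8.96 and 8.82 log2 units and TAM arrays 9.42, 9.18, 9.54, 9.81 and 9.28. Values of other members follow this order. Every TAM array lay above every OIL array, and the increase was seen in all 5 labels. The means were 8.80 ± 0.11 and 9.45 ± 0.24 (SD, n = 5), a difference of 0.65 (SE 0.12, limma adjusted p = 0.0469 over 12735 genes). With the replicate label as a block the adjusted p was 0.0131. Eif2ak3 was 1 of 36 tested members called without the block, where 0.471% of all genes were called and 0.298% were called as higher.

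The call of Eif2ak3 stood close to the threshold. It was lost in limma without OIL 204 (adjusted p = 0.0951), OIL 206 (0.0765), OIL F3.1 (0.137), OIL F3.2 (0.0874), OIL F3 (0.0627), TAM 204 (0.0835), TAM F3.1 (0.123) or TAM F3 (0.0563), and with OIL F3.1 and F3.2 averaged (0.0996), with differences of 0.62 to 0.69. The blocked fit lost it only without label F3.1 (0.0561). The mean of its 3 probe sets gave 0.42 (adjusted p = 0.0839). The other 2 probe sets, with means of 4.35 and 3.89 below the dim limit, differed by 0.32 and 0.29.

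Of the 36 tested members, 30 had a higher mean in TAM and 6 a lower one, or 83.3% higher against 41.0% of all genes. Members were chosen with earlier results of these data known, so here and below such shares are descriptions and not independent evidence. The same direction in all 5 labels was seen in 13 higher members and 1 lower member, 38.9% of those tested against 21.9% of all genes. With the block 4 members were called, 3 higher (Eif2ak3, Ern1 and Chac1) and 1 lower (Cebpb), where 3.38% of all genes were called, 1.65% as higher and 1.74% as lower.

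Ern1, the gene of IRE1, was 2.04-fold higher in TAM at its brightest probe set. OIL arrays read 6.08, 5.75, 6.13, 6.25 and 6.48, and TAM arrays 6.58, 6.89, 8.14, 6.84 and 7.37. The groups did not overlap, though TAM 204 lay just above OIL F3, and TAM F3.1 was the highest. The difference of 1.03 (SE 0.27) did not pass without the block (limma adjusted p = 0.140) and passed with it (0.0452). The blocked call was lost when any single label was left out (adjusted p from 0.0511 without F3.2 to 0.115 without F3; 0.0779 without 204, 0.103 without 206 and 0.0561 without F3.1). The probe sets of Ern1 disagreed. The next brightest, with a mean of 6.12, differed by 0.01, the 3 dim ones by -0.10 to 0.19, and the mean of all 5 by 0.25 (adjusted p = 0.283). Which Ern1 transcripts each probe set reads was not determined here.

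Atf6, the third sensor, read 6.86, 6.69, 7.31, 7.27 and 7.07 in OIL and 7.17, 7.22, 7.60, 7.21 and 7.22 in TAM. These ranges overlapped, and 4 of 5 labels were higher in TAM. The difference of 0.24 did not pass in either fit (limma adjusted p = 0.491 without and 0.171 with the block), and its other 2 probe sets differed by 0.01 and 0.05.

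**Figure D1:**
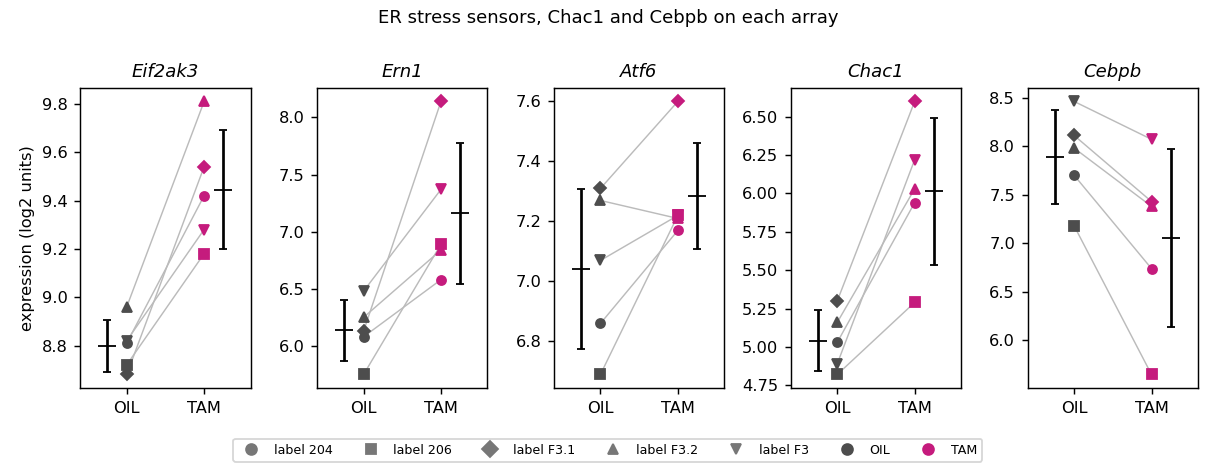
Expression in log2 units of the sensors Eif2ak3, Ern1 and Atf6 and of Chac1 and Cebpb on each of the 10 arrays, with a mark for each label, a line joining its OIL and TAM arrays and black bars giving mean ± SD (n = 5) on a separate axis for each gene. Eif2ak3 and Ern1 show no overlap between groups, and Cebpb is lower in TAM in every label.

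The ATF4 arm was higher in TAM for 14 of 19 tested members, against 41.0% of all genes tested. Its median difference was 0.28 log2 units, and 0.17 over all 22 members, while the median of all genes was -0.03. It was 0.15 without TAM F3.1 and 0.16 without OIL 206. By label the median was -0.27 in 204, 0.24 in 206, 0.48 in F3.1, 0.18 in F3.2 and 0.30 in F3. No ATF4 arm member passed without the block (limma, 0 called, though 6 had an unadjusted p below 0.05, as did 13.0% of all genes). With the block Chac1 rose and Cebpb fell. Nupr1, Vldlr and Slc7a11 had means below the dim limit and were not tested; they differed by 0.08, 0.03 and 0.0014. Nupr1 is a stress-induced chromatin protein, Vldlr a lipoprotein receptor and Slc7a11 the cystine carrier.

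Among the transcription factors, Atf4 itself was 1.32-fold higher. OIL arrays read 10.30, 10.63, 10.36, 10.38 and 10.58, and TAM arrays 10.77, 10.83, 10.99, 10.56 and 11.10. Only TAM F3.2 fell within the OIL range, and all 5 labels were higher in TAM. The difference of 0.40 (SE 0.11) missed the threshold in both fits (limma adjusted p = 0.167, and 0.0519 with the block). The blocked fit without label F3.2 called Atf4 (0.46, limma adjusted p = 0.0423). Its other probe sets differed by 0.45 and, for one below the dim limit, by -0.04. Ddit3, which encodes the pro-apoptotic factor CHOP, read 7.48, 7.03, 7.28, 7.40 and 7.55 in OIL and 7.73, 7.26, 7.47, 7.73 and 7.95 in TAM. The groups overlapped because the labels lay at different levels, yet each label was higher in TAM by 0.19 to 0.41. Its mean difference of 0.28 did not pass (adjusted p = 0.435, and 0.0523 with the block). Cebpg, a partner of ATF4 on DNA, differed by 0.55 and Atf5, itself translated like ATF4, by 0.47, and neither passed in either fit.

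Cebpb, a C/EBP factor that also drives myeloid genes, went the other way. OIL arrays read 7.70, 7.18, 8.11, 7.98 and 8.46, and TAM arrays 6.74, 5.65, 7.43, 7.38 and 8.07. All 5 labels were lower in TAM, by 0.39 in label F3 up to 1.54 in label 206, but the groups overlapped. The difference was -0.83 (limma adjusted p = 0.430 without the block), and -0.48 without TAM 206. It fell in the blocked fit (adjusted p = 0.0380), a call kept without label 206 (0.0438) and lost without 204 (0.107), F3.1 (0.110), F3.2 (0.0511) or F3 (0.0552). Its second probe set differed by -0.64.

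Of the stress effectors, Chac1 encodes an enzyme that degrades glutathione and is a target of ATF4. OIL arrays read 5.03, 4.82, 5.30, 5.16 and 4.89, and TAM arrays 5.94, 5.29, 6.60, 6.03 and 6.22. All labels were higher in TAM, and only TAM 206 lay within the OIL range. The difference of 0.97 (1.97-fold, SE 0.21) passed with the block (limma adjusted p = 0.0132) and not without it (0.0816). Chac1 has 1 probe set, whose mean of 5.53 was the lowest of the tested members. It was not tested in the setting that left out the dimmest 50% of genes. The unblocked fit called it when TAM 206 was left out (0.0296). The blocked fit lost it without label 204 (0.0505) or F3.1 (0.0561). Ppp1r15a, which directs the phosphatase that reverses eIF2 phosphorylation, differed by 0.30 and the pseudokinase Trib3, a feedback inhibitor of ATF4, by 0.19. Neither passed in either fit, though the blocked fit without label F3.2 called Ppp1r15a (0.38, limma adjusted p = 0.044).

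The synthesis enzymes spread to both sides of 0. Mthfd2, of mitochondrial one-carbon metabolism, read 9.87, 9.02, 8.65, 8.70 and 9.39 in OIL and 9.54, 9.92, 9.65, 9.14 and 10.13 in TAM. It was lower in TAM in label 204 and higher in the other 4 labels. Its difference of 0.55 did not pass (limma adjusted p = 0.391, and 0.143 with the block), although the blocked fit without label 204 called it (0.77, adjusted p = 0.0358). The serine pathway enzymes differed by -0.13 for Phgdh, 0.16 for Psat1 and -0.14 for Psph, and Shmt2, which turns serine to glycine, by 0.01. Shmt2 changed sign in 8 of 24 alternative settings.

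Asparagine synthetase, Asns, differed far more between labels than between treatments. OIL arrays read 5.70, 4.44, 7.98, 7.40 and 7.32, and TAM arrays 4.98, 5.20, 9.62, 8.06 and 8.13. The 4 arrays of labels 204 and 206 all lay below the 6 arrays of the F3 labels. TAM was higher than OIL in 4 labels, by 0.66 to 1.64, and lower by 0.72 in label 204. The mean difference of 0.63 (SE 0.97) did not pass (limma adjusted p = 0.839, and 0.247 with the block). It ranged from 0.023 without TAM F3.1 to 1.18 without TAM 204.

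Amino acid transporters of the ATF4 arm differed by -0.17 to 0.33, and none passed in either fit (limma; 2 of 5, Slc38a2 and Slc7a1, had an unadjusted p below 0.05 without the block). Slc38a2, a carrier of small neutral amino acids, was higher in all 5 labels (0.33, adjusted p = 0.211), and the arginine and lysine carrier Slc7a1 in 4 of 5 (0.33, adjusted p = 0.292). Slc7a5 and Slc3a2, the light and heavy chain of the leucine carrier, differed by -0.0082 and 0.06. The glutamine carrier Slc1a5 read 8.05, 8.55, 8.46, 8.46 and 8.68 in OIL and 7.93, 8.59, 8.29, 7.99 and 8.56 in TAM. It had the second lowest difference of the arm, -0.17 (adjusted p = 0.721), with overlapping groups. Its second probe set, with a mean of 6.17, went the other way, by 0.07.

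**Figure D2:**
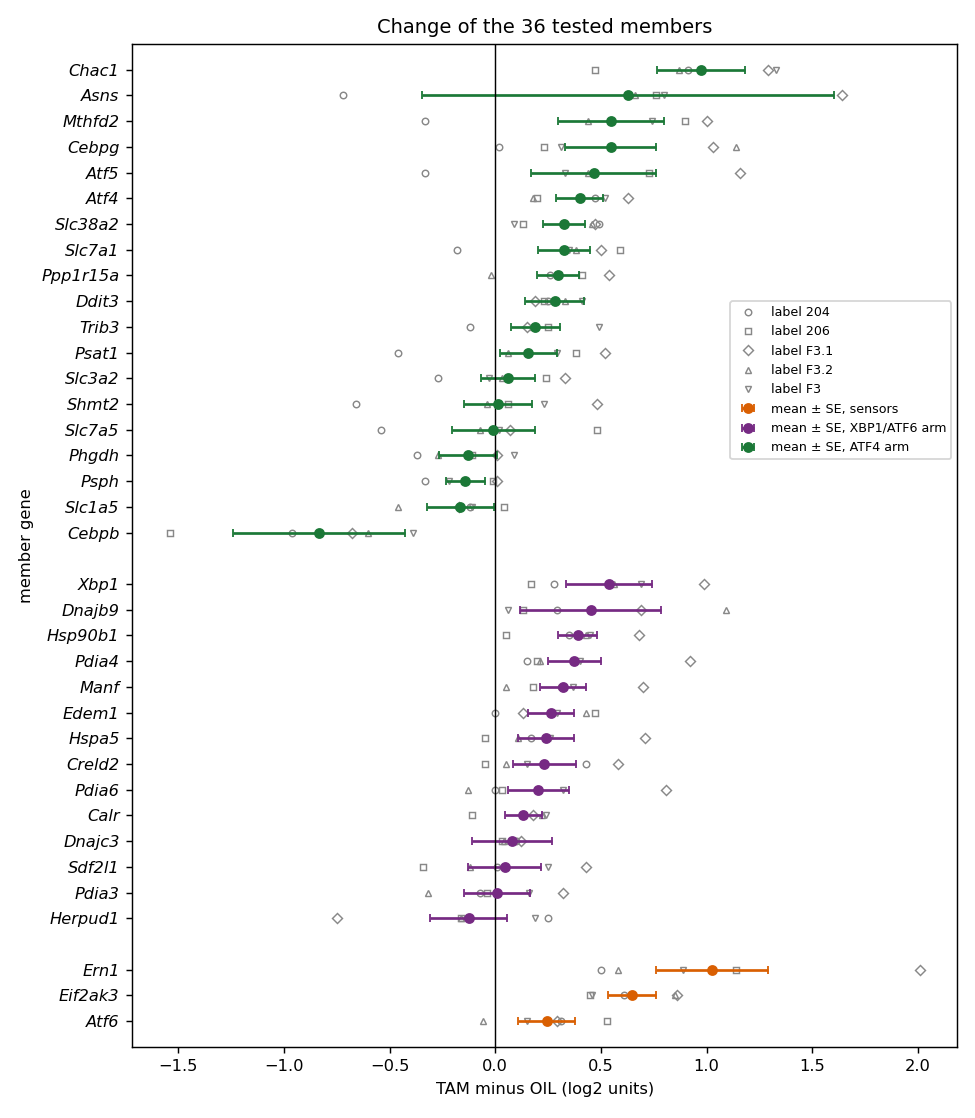
Difference between TAM and OIL in log2 units for the 36 tested members, with filled points and bars for the mean ± SE of the limma fit without a block and open symbols for the difference within each label. Most members lie to the right of 0, Cebpb lies farthest to the left, and the label F3.1 gives the largest difference for many XBP1/ATF6 arm members.

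The XBP1/ATF6 arm was higher in TAM for 13 of 14 members, all of them tested, with a median difference of 0.24 log2 units. No member of the arm was called in either fit (limma; an unadjusted p below 0.05 was reached by 5 members without the block and 6 with it, and by 13.0% and 22.4% of all genes). The size of its shift differed between labels. The median over the 14 members was 0.63 in label F3.1, 0.26 in F3, 0.16 in 204, 0.08 in F3.2 and 0.03 in 206. The median of the arm was 0.15 without TAM F3.1, and 0.14 in the blocked fit without that label.

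Xbp1, the transcription factor of the arm, was higher in each label. OIL arrays read 9.64, 9.57, 9.89, 10.04 and 9.63, and TAM arrays 9.92, 9.74, 10.88, 10.60 and 10.32. The TAM arrays of the F3 labels lay above all OIL arrays, and those of 204 and 206 within the OIL range. The difference of 0.54 (1.45-fold, SE 0.21) did not pass (limma adjusted p = 0.294, and 0.0586 with the block), and its other 3 probe sets differed by 0.30 to 0.54. Whether any of them tells spliced from unspliced Xbp1 mRNA was not determined here.

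Hspa5, the main ER chaperone BiP, read 11.58, 11.74, 11.69, 11.79 and 11.86 in OIL and 11.74, 11.69, 12.40, 11.91 and 12.13 in TAM. The groups overlapped, and label 206 was lower in TAM by 0.05. The difference of 0.24 did not pass (limma adjusted p = 0.490, and 0.241 with the block). Its other 2 probe sets differed by 0.24 and 0.00. Hsp90b1, the ER form of the HSP90 chaperones, read 10.70, 10.87, 10.58, 10.50 and 10.69 in OIL and 11.05, 10.92, 11.26, 10.93 and 11.14 in TAM. Its groups did not overlap, though the step from OIL 206 to TAM 206 was only 0.05. The difference of 0.39 (SE 0.09) missed the threshold (adjusted p = 0.106, and 0.0640 with the block), and its second probe set differed by 0.43.

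**Figure D3:**
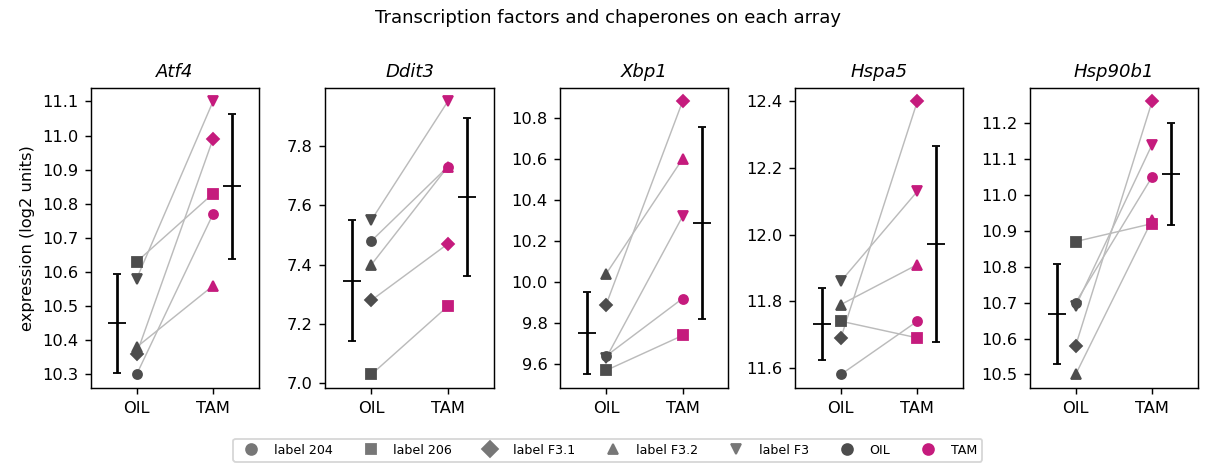
Expression in log2 units of Atf4, Ddit3, Xbp1, Hspa5 and Hsp90b1 on each array, with lines joining the OIL and TAM arrays of a label and bars for mean ± SD (n = 5), each gene on its own axis. Atf4, Ddit3, Xbp1 and Hsp90b1 are higher in TAM in all 5 labels, and the TAM F3.1 array is the highest for Xbp1, Hspa5 and Hsp90b1.

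Of the other chaperones and cochaperones, Manf, a secreted ER protein, differed by 0.32 and was higher in all 5 labels (limma adjusted p = 0.253). Dnajb9, a cochaperone of BiP, read 7.49, 7.43, 6.0, 6.18 and 6.64 in OIL and 7.78, 7.56, 6.69, 7.28 and 6.70 in TAM. It was higher in TAM in every label, by 0.06 to 1.09, but the labels lay too far apart for the groups to separate (difference 0.45, adjusted p = 0.624, and 0.147 with the block). Creld2 differed by 0.23, the calcium-binding chaperone Calr by 0.13, Dnajc3, which inhibits PERK, by 0.08 and Sdf2l1 by 0.04.

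The disulphide isomerases, which form and shuffle disulphide bonds, differed by 0.37 for Pdia4, 0.20 for Pdia6 and 0.01 for Pdia3. Pdia4 was higher in all 5 labels and its groups did not overlap (limma adjusted p = 0.235). Its second probe set, near the dim limit, differed by 0.05. Among all arms, 4 of the 36 tested members had groups that did not overlap, Eif2ak3, Ern1, Hsp90b1 and Pdia4, or 11.1%, where 3.27% of all tested genes did.

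The degradation factors differed in sign. Edem1, which acts on misfolded glycoproteins, differed by 0.26 (limma adjusted p = 0.330), and its second probe set, with a mean of 10.28, by 0.53. Herpud1, a scaffold of the degradation complex, read 8.99, 9.29, 9.84, 9.83 and 9.27 in OIL and 9.24, 9.13, 9.09, 9.67 and 9.47 in TAM. It was the only member of its arm with a lower mean in TAM (-0.12, adjusted p = 0.826). Label F3.1, where most chaperones showed their largest increase, showed its largest decrease, 0.75, and without that label the blocked difference was 0.03.

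The arms were set side by side as the mean level of their tested members on each array, each gene centred on its own mean. Genes were not scaled to a common spread. Asns, which differed mostly between labels, had the widest range of the ATF4 arm, 5.17 log2 units, and its share of the arm level was not separated. The ATF4 arm was -0.10 ± 0.12 in OIL and 0.10 ± 0.20 in TAM, and the XBP1/ATF6 arm -0.11 ± 0.06 and 0.11 ± 0.15 (SD, n = 5). TAM F3.1 was highest for both, at 0.38 and 0.30, followed by TAM F3 at 0.23 and 0.24. The arms parted in label 204, where the ATF4 arm went from 0.04 in OIL to -0.12 in TAM and the XBP1/ATF6 arm from -0.14 to 0.03. In that label 6 of 19 ATF4 arm members and 11 of 14 XBP1/ATF6 arm members were higher in TAM. In label 206 the counts were 16 of 19 and 8 of 14. Of all 12735 genes tested, 5673 were higher in TAM in label 204 and 5769 in label 206. These levels are a description and carry no test.

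**Figure D4:**
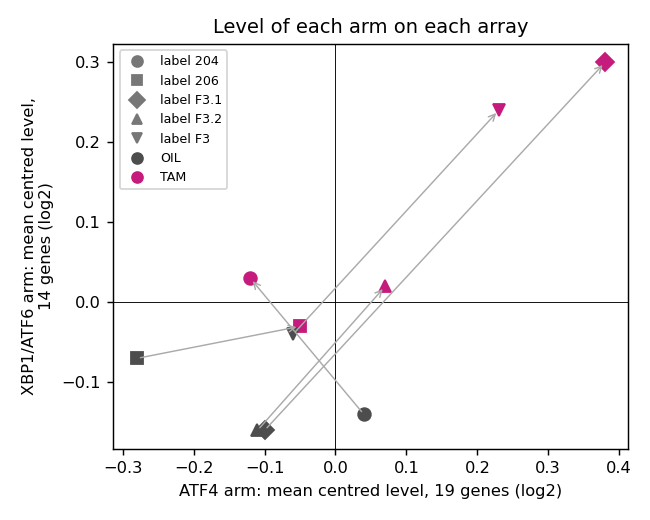
Mean centred level in log2 units of the 19 tested ATF4 arm members (horizontal) and the 14 XBP1/ATF6 arm members (vertical) on each array, with arrows from the OIL to the TAM array of a label. The arrows of F3, F3.1 and F3.2 rise on both axes, that of 206 runs mostly along the ATF4 axis, and that of 204 goes up for the XBP1/ATF6 arm and down for the ATF4 arm.

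The difference in treatment response between label families was tested with an interaction term, the labels F3, F3.1 and F3.2 against 204 and 206. This fit had no label block, so differences in level between the labels of a family entered its error. It called 0 members (limma; 0 had an unadjusted p below 0.05) and 0 of all 12735 genes (0% called; 346, or 2.72%, had an unadjusted p below 0.05). With the label as a block the interaction also called 0 members. A p that misses the threshold does not show that the responses were alike.

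Levels themselves differed between label families for 3 of the 36 tested members, 2 higher and 1 lower in the F3 labels. In this fit, limma with treatment in the model and label as a random block, 6.56% of all genes were called, 2.89% as higher and 3.67% as lower. In the same fit 8 of the 36 members and 21.5% of all genes had an unadjusted p below 0.05. Both counts of members lay near the share of all genes. Asns was 8.01-fold higher in the F3 labels, at 8.08 ± 0.83 (SD, n = 6 arrays) against 5.08 ± 0.52 (n = 4), a difference of 3.00 (SE 0.43, limma adjusted p = 0.00397). It remained called whichever single array was left out, but the other array of that label always stayed in. No whole label was left out in this comparison. With the mean of both probe sets the Asns difference was 3.36. Dnajb9 was 1.98-fold lower in the F3 labels, 6.58 ± 0.45 against 7.56 ± 0.15 (difference -0.98, limma adjusted p = 0.0182), and lost its call without OIL 204 (0.0632), OIL F3.2 (0.0643) or TAM 204 (0.0519). Cebpb was 2.13-fold higher, 7.91 ± 0.42 against 6.82 ± 0.87 (difference 1.09, adjusted p = 0.0438).

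With 1 array left out, the Cebpb call held only without OIL F3 (limma adjusted p = 0.0391) or TAM F3 (0.0377), and was lost without any other array (0.0557 to 0.101) and with the mean of both Cebpb probe sets (0.76, adjusted p = 0.0918). Myeloid cells are known to use Cebpb. Myeloid markers summed to 36.68 to 47.43 log2 units in the F3 labels and 33.23 to 38.44 in 204 and 206. Between treatments Cebpb was lower in TAM, while 3 of 5 tested myeloid markers were higher and 2 lower (median 0.40). The part of these markers in the Cebpb values was not tested. The arrays of a family share labels, and the labels do not say whether they share a primary leukemia, so these p-values measure only the spread between arrays.

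**Figure D5:**
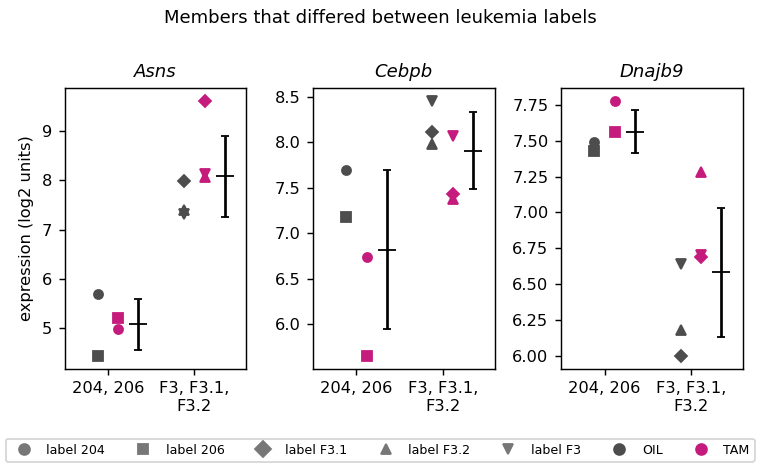
Expression in log2 units of Asns, Cebpb and Dnajb9 on each array, grouped as labels 204 and 206 (4 arrays) and labels F3, F3.1 and F3.2 (6 arrays), coloured by treatment, with bars for mean ± SD. Asns does not overlap between the families, from 4.44 to 5.70 against 7.32 to 9.62.

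Other genes of these pathways were taken from 7 further lists, of which 116 genes were tested and 0 were called in either fit (limma; an unadjusted p below 0.05 was reached by 8, or 6.9%, without the block and 17, or 14.7%, with it, against 13.0% and 22.4% of all genes). Their median difference was 0.02, with 69 higher (59.5%, against 41.0% of all genes) and 47 lower in TAM. The 16 tested further ATF4 targets had a median of 0.04, with the translation repressor Eif4ebp1 at 0.46, and the 19 cytosolic tRNA synthetases, enzymes that load amino acids on tRNA, a median of 0.03, with Iars at 0.36. The eIF2 kinases and eIF2 or eIF2B subunits, listed together with Ppp1r15b and Impact, were higher in 2 and lower in 10 of 12. That is 16.7% higher, against 41.0% of all genes, with a median of -0.06 and Eif2b2 lowest at -0.21. The other eIF2 kinases differed by -0.02 for Eif2ak1, -0.15 for Eif2ak2 and -0.15 for Eif2ak4, and were not called.

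On the ER side, 22 translocation and glycosylation genes had a median of 0.05 (Sec63 0.28), 20 further folding genes 0.06 (Hyou1 0.32), 16 further degradation genes -0.03 (Derl2 0.28) and 11 further stress regulators 0.02. In the last list the BH3-only death gene Bbc3 differed most, at -0.55. Differences between lists were not tested.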

How the data were processed

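The log2 values per probe set were deposited by the authors, processed with RMA per the submitters' processing notes (version not given in the sources used here) from 200 ng of total RNA per the labels. RMA corrects background, normalizes by quantiles and summarises probes, so a shift common to all genes is removed. Array medians were 5.07 to 5.13. Of 45101 probe sets, 34958 had 1 symbol, 932 several and 9211 none, and 34754 matched RefSeq (GRCm38.p6) by Entrez ID. The number of arrays limits the precision.

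Each gene was its brightest uniquely annotated probe set. Genes below the dim limit were left out, which kept 12735. The TAM and OIL arrays were compared with lmFit and eBayes of limma 3.58.1 (R 4.3.3), called at a Benjamini-Hochberg adjusted p under 0.05 over all genes tested. A second fit took the label as a block. Labels were matched across treatments by sample description, leaving out the number after the hyphen in those of F3.1 and F3.2. Deviations of the paired arrays correlated at 0.76 (204), 0.75 (206), 0.58 (F3.1), 0.18 (F3.2) and 0.80 (F3), and 7 of 10 arrays correlated best with their own pair. Nothing states that every array is a separate mouse, and the p-values then reflect the spread among these arrays alone, which may be technical. Arms were split by known function. Named in full were the defining genes of each arm, members called in either fit, and in each arm the 3 largest rises and 2 largest falls; from other lists, called genes or else the largest difference. Members and lists were chosen with earlier results of these data known.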

Additional observations from a re-analysis of the deposited data

Results flagged for a closer look

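Within each group of 5 arrays, each member was checked for 1 array standing far from the other 4, in 78 groups in all, and 5 stood out; chance gives about 1 in 20. Atf5 read 8.83 on OIL 204 against 7.25 to 7.63 on the other OIL arrays. Psat1 read 10.99 on the same array against 10.35 to 10.49. Dnajc3 read 11.21 on OIL F3, against 10.39 to 10.62 on the others, and 11.32 on TAM F3, against 10.43 to 10.65, so both arrays of label F3 stood above the rest. Atf6 read 7.60 on TAM F3.1, against 7.17 to 7.22 on the other TAM arrays.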

How the results depend on the processing

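The count of 1 called member (limma) became 4 with the replicate block, and 0 with no filter on dim genes, further quantile normalization, the mean of all probe sets, each probe set on its own, or OIL F3.1 and OIL F3.2 averaged. Leaving out arrays, or labels in the blocked fit, gave 0 to 4. For ATF4 arm members, 0 became 2 with the block and 0 to 3 with arrays or labels left out. XBP1/ATF6 arm members stayed at 0 in all settings run. All genes called numbered 60, against 431 with the block, 26 with the mean of all probe sets, 35 by probe set, 10 with the 2 arrays averaged, and 8 (without OIL F3.1) to 436 (blocked, without label F3.2) with arrays or labels left out. Members called between label families numbered 3, against 5 with no replicate block and 1 to 5 with an array left out. They numbered 2 with the mean of all probe sets and 4 with no filter on dim genes. Without the filter Slc7a11, below the dim limit, was also called (F3 labels minus 204 and 206 -0.46, limma adjusted p = 0.00607). The interaction called 0 members in all settings run. Of 36 tested members, 29 kept their sign in all settings run, and 7 near 0 changed it. With each probe set on its own, the sign was read from the brightest probe set alone. With the mean of all probe sets and with the 2 arrays averaged, Shmt2 was -0.008 and -0.0027 and Pdia3 -0.083 and -0.039. With arrays or labels left out, the ranges were -0.10 to 0.18 for Shmt2, -0.068 to 0.15 for Pdia3, -0.13 to 0.12 for Slc7a5, -0.0074 to 0.16 for Slc3a2, -0.069 to 0.22 for Dnajc3, -0.082 to 0.15 for Sdf2l1 and -0.24 to 0.033 for Herpud1. The cause was not tested.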
